A study of Mus musculus with 4 samples.

Results

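The 10 genes described here are markers of alternatively activated macrophages and scavenger receptors of phagocytes: Arg1, Mrc1, Chil3, Retnla, Il10, Msr1, Cd163, Marco, Stab1 and Clec10a. They were taken by symbol from the 32285 genes of the count matrices, and all 10 were present. The study profiled single cells of fracture callus and of trabecular bone from 20-week-old male C57BL/6J mice at week 2, with a control (placebo) and a glucocorticoid (GC) arm. The GC arm received prednisolone at 6.25 mg/kg/d. The labels describe a slow-release pellet under the skin for every library, whereas the methods of the study describe daily injection of prednisolone at this dose for fractured mice. There was 1 library for each tissue and treatment, the number of mice pooled in a library was not stated, and treatment therefore cannot be told apart from other differences between 2 libraries. No statistical test between libraries was possible. Levels are given as CPM, the UMIs (unique molecular identifiers, counted transcripts) of a gene per 1000000 UMIs of all genes in the same cells, and intervals cover counting error only. A gene was called when its level in a cell class differed at least 2-fold between the libraries of a tissue and it had enough UMIs there, at least 50 over both.

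Macrophages that meet interleukin 4 or interleukin 13 turn on a program through STAT6 that includes the arginine-degrading enzyme Arg1, the mannose receptor Mrc1, the chitinase-like protein Chil3 (Ym1) and the resistin-like protein Retnla. Il10, the scavenger receptors Msr1, Marco, Stab1 and Cd163, and the C-type lectin Clec10a are often measured beside them as signs of resolving, tissue-clearing phagocytes. In the mouse several of these genes are not particular to macrophages. Chil3 is made by monocytes and by neutrophil precursors in bone marrow, Stab1 and Mrc1 are made by sinusoidal endothelium, and Clec10a marks some dendritic cells.

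After filtering, the control and GC libraries kept 6714 and 6890 cells of callus and 3832 and 4604 cells of trabecular bone, with median depths of 3271.5 to 6241.5 UMIs per cell. Each pair of libraries shared 6 to 11 cell barcodes. Cells were clustered within each tissue without the members, and clusters were named from a list of markers that holds no member. Callus held a macrophage class (88 control and 86 GC cells) in which the complement gene C1qa stood at 1333 and 1485 CPM, and 12 of 12 macrophage markers were detected in each library. Callus monocytes (497 and 476 cells) had C1qa at 2.62 and 4.77 CPM. No cluster of trabecular bone was named macrophage, and its monocytes (268 and 275 cells) had C1qa at 7.81 and 10.8 CPM. The matrix of the GC callus held called cells only, so its empty droplets could not be read and its cells were called by another method than those of the other libraries. In callus the summed level of 11 chondrocyte markers was higher in control than in GC cells of the 5 myeloid classes described here, from 2629 against 649 CPM in osteoclasts to 5071 against 2434 CPM in mature neutrophils, and the part of this in the results below was not tested. Fkbp5, a target of the glucocorticoid receptor, was at 18.6 and 28.8 CPM in callus macrophages, on 12 and 14 UMIs. In callus monocytes it was at 2.62 and 13.8 CPM, on 6 and 26 UMIs. Both classes were under the minimum of UMIs for a call. Fkbp5 was at 23.2 and 85.5 CPM in trabecular monocytes, and at 12.2 and 107 CPM in mature neutrophils of trabecular bone. In callus monocytes 0 of 11 glucocorticoid response genes were called higher and 2 lower, beside 3.9% and 3.62% of all genes.

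**Figure D1:**
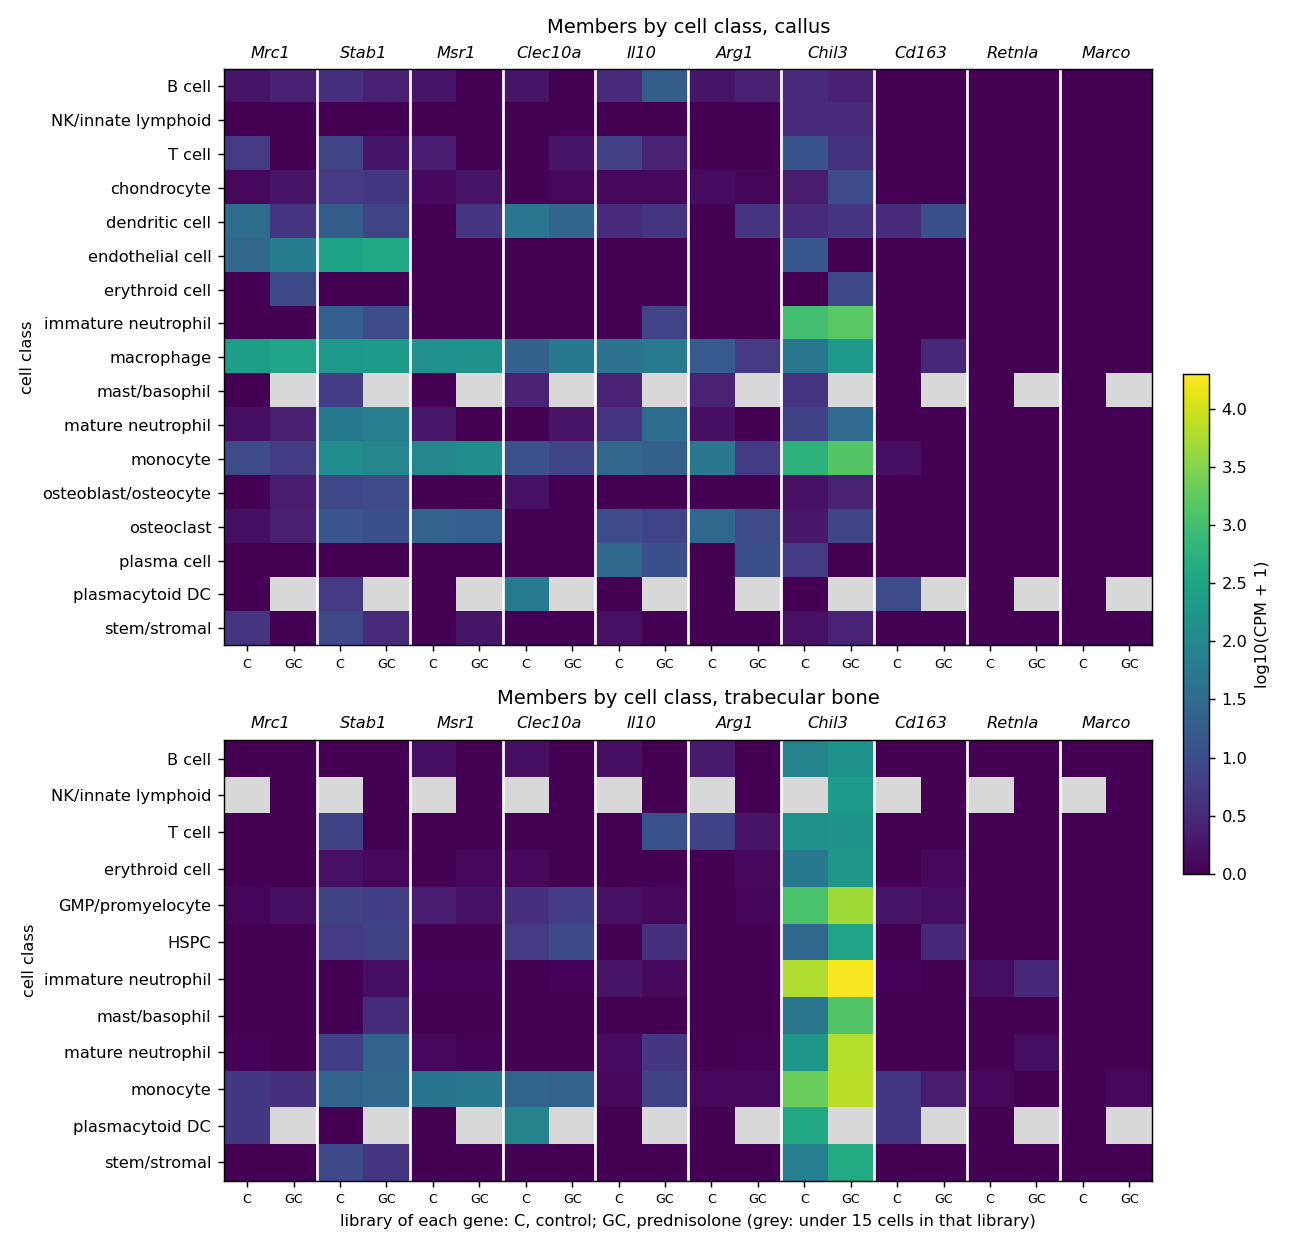
Heat maps of the 10 members by cell class (rows) in callus and trabecular bone; colour is log10(CPM + 1) and each gene has a column for the control (C) and the GC library. Mrc1, Stab1 and Msr1 are bright in callus macrophages, Chil3 in neutrophil precursors and monocytes, and Cd163, Retnla and Marco are dark or nearly so in all classes.

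The receptors differed from each other in how they were spread over the classes of callus. Mrc1 (chr2:14229392-14332057, GRCm38, plus strand), an endocytic receptor for mannosylated glycoproteins, stood at 257 CPM in control and 327 CPM in GC macrophages (166 and 159 UMIs), a ratio of 1.27 (95% interval 1.02 to 1.59). A single control macrophage held 37 of the 166 UMIs, and without the highest cell of each library the ratio was 1.54 (1.21 to 1.97). In all other named classes of callus Mrc1 was lower. Endothelial cells had 25.5 and 66.4 CPM on 11 and 29 UMIs, monocytes had 9.17 and 4.77 CPM, and an unnamed cluster led by the antigen presentation genes Cd74 and H2-Aa had 37.4 and 38.7 CPM. Dendritic cells had 32.7 CPM on 13 UMIs in control and 3.43 CPM on 1 UMI in GC. Chondrocytes had 0.237 and 0.754 CPM of Mrc1 and 0.237 and 0.657 CPM of Msr1, on 15 to 31 UMIs. After thinning every cell to 1000 UMIs, 15.5% of control and 22.4% of GC macrophages held a Mrc1 UMI (36.4% and 52.3% unthinned, median depths 5993 and 5078.5 UMIs), with 4 and 1 shallower cells left out. Chondrocytes, which should lack the gene, held one in 0 of 2531 thinned control cells, which allows a share of up to 0.119%, and in 0.209% of GC cells (0.533% and 1.01% unthinned, median depths 23078 and 10179 UMIs).

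Msr1, the class A scavenger receptor for modified lipoproteins, was shared by macrophages and monocytes. In macrophages it was at 150 CPM in control and 152 CPM in GC (ratio 1.01, 0.739 to 1.39). In monocytes it was at 93.0 and 133 CPM (1.43, 1.18 to 1.72), and the level was higher in GC by less than 2-fold. Osteoclasts, which derive from the same precursors, had 21.7 and 18.6 CPM (0.859, 0.546 to 1.34). In thinned cells 5.95% of control and 14.1% of GC macrophages held a Msr1 UMI (34.1% and 44.2% unthinned), as did 10.1% of monocytes in both libraries (27.6% and 34.2% unthinned). B cells of callus, at median depths of 1927 and 1703.5 UMIs, held 1 UMI of Msr1 in 631 control cells and 0 in 378 GC cells.

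Stab1 (chr14:31139013-31168641, minus strand), a scavenger receptor of sinusoidal endothelium and tissue macrophages, had its highest callus level in endothelial cells, at 308 CPM in control and 364 CPM in GC (ratio 1.18, 0.932 to 1.5). Macrophages followed at 195 and 222 CPM (1.14, 0.872 to 1.48), and the intervals of both ratios included 1. Monocytes stood at 120 CPM in control and 90.7 CPM in GC, a ratio of 0.755 (0.620 to 0.917). Mature neutrophils of callus stood at 54.4 and 67.8 CPM (1.25, 0.938 to 1.65). Lower levels were found in osteoclasts (12.6 and 10.3 CPM), osteoblasts or osteocytes (7.59 and 8.48 CPM), skeletal stem or stromal cells (7.65 and 2.34 CPM on 13 and 3 UMIs) and chondrocytes (4.09 and 3.87 CPM, ratio 0.947, 0.772 to 1.16). An unnamed cluster led by Olr1, Apoc2, Ace and Cx3cr1 had 15.7 and 40.3 CPM on 4 and 11 UMIs. The empty droplets of the control callus library had Stab1 at 45.3 CPM, while B cells of that library, at a median of 1927 UMIs against 1269 UMIs in mature neutrophils, had 2.97 CPM. A Stab1 UMI was found in 4.77% and 6.77% of thinned mature neutrophils (6.20% and 6.87% unthinned), with 285 and 367 shallower cells left out, and in 0.167% and 0.287% of thinned B cells (0.634% and 0.265% unthinned).

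Clec10a, a lectin for galactose-type sugars, was spread over antigen-presenting cells. The unnamed cluster led by Cd74 and H2-Aa had 131 CPM in control and 87.1 CPM in GC on 28 and 27 UMIs (ratio 0.665, 0.377 to 1.17), and 1 control cell held 13 of the 28. Plasmacytoid dendritic cells of the control had 55.0 CPM on 13 UMIs, and 7 GC cells of that class were too few to describe. Dendritic cells had 47.7 and 24.0 CPM on 19 and 7 UMIs, and monocytes 10.5 and 6.89 CPM on 24 and 13 UMIs. Macrophages had 20.1 CPM in control and 53.4 CPM in GC on 13 and 26 UMIs, a ratio of 2.66 (1.32 to 5.63), which rests on 39 UMIs in all and was under the minimum of 50 set for a call. When every cell was thinned to 1000 UMIs first, this ratio was 0.988, but few thinned macrophages of either library held a Clec10a UMI.

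The other receptors were barely detected. Cd163, the haptoglobin-hemoglobin scavenger receptor, had 8 and 7 UMIs over all kept callus cells, and 1 of these lay in a macrophage, of the GC library. Marco, a scavenger receptor of marginal zone and alveolar macrophages, had 0 UMIs in both callus libraries and 1 UMI in trabecular bone, in a GC monocyte. For Marco, 0 UMIs in callus macrophages allow up to 4.64 CPM in control and 6.16 CPM in GC. Retnla had 0 UMIs in kept callus cells.

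**Figure D2:**
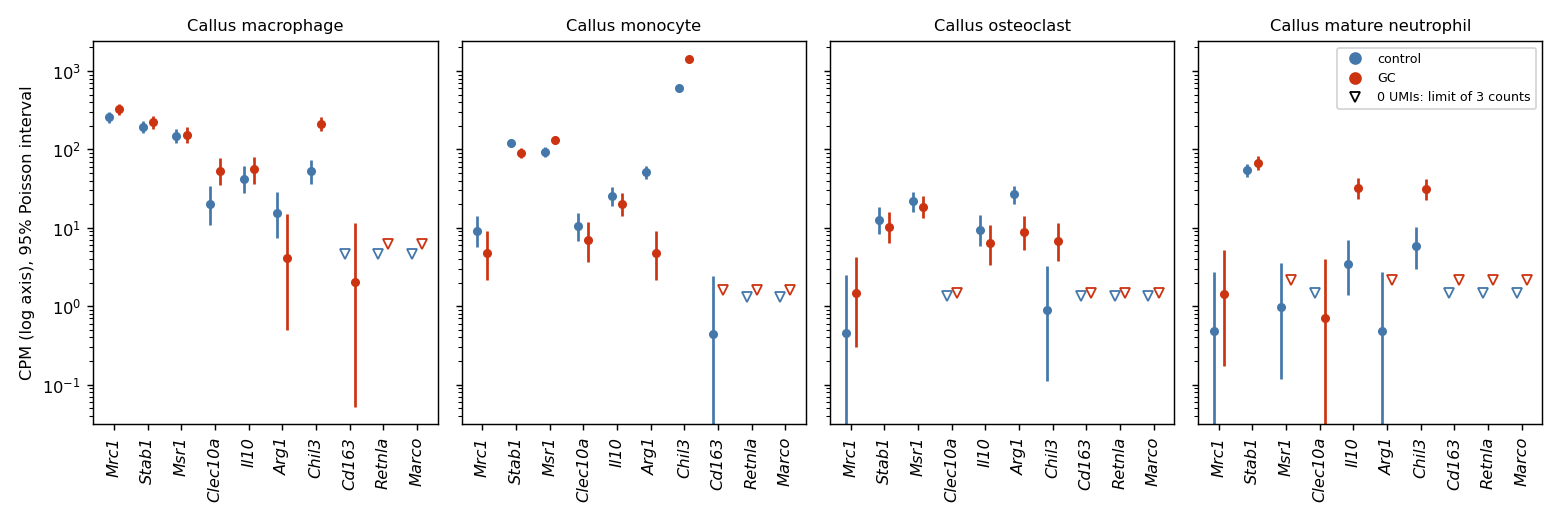
Levels of the 10 members in 4 callus classes, in CPM on a log axis with 95% Poisson intervals; blue is control, red is GC, and open triangles give the limit that 3 counts set where a library had 0 UMIs. Arg1 in monocytes lies at 51.1 CPM in control and 4.77 CPM in GC, and Chil3 lies higher in GC in all 4 classes.

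Arg1 (chr10:24915221-24927484, minus strand), the enzyme that turns arginine into ornithine and urea, had the lowest GC over control ratio of the 5 members with enough UMIs in callus monocytes. The level was 51.1 CPM in control (117 UMIs in 33 of 497 cells) and 4.77 CPM in GC (9 UMIs in 6 of 476 cells), which is 10.7-fold lower (5.45 to 24.0). The highest control cell held 24 UMIs, and without the highest cell of each library Arg1 was 12.8-fold lower (5.64 to 35.6). In thinned cells 3.44% of control and 0.211% of GC monocytes held an Arg1 UMI (6.64% and 1.26% unthinned, median depths 4663 and 3904 UMIs), against 0.167% and 0.287% of B cells. Arg1 passed the minimum of 50 UMIs through the control library alone.

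Arg1 was also present in osteoclasts and macrophages of callus. In osteoclasts it was at 26.6 CPM in control and 8.82 CPM in GC (59 and 18 UMIs), 3.02-fold lower (1.76 to 5.44). This difference rested on 1 control osteoclast with 42 of the 59 UMIs. Without the highest cell of each library the levels were 7.71 and 6.89 CPM, a ratio of 0.894 (0.408 to 1.93). An Arg1 UMI was found in 10 of 112 control and 12 of 120 GC osteoclasts. In macrophages there were 10 and 2 UMIs, too few to compare, and in chondrocytes 26 and 8 UMIs (0.410 and 0.195 CPM). Of all Arg1 UMIs in kept cells, 53.4% in control and 22.0% in GC lay in monocytes, and 26.9% and 43.9% in osteoclasts.

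The promoter windows of 3 members are shown because Chil3 carried the largest differences, and Retnla and Cd163 held letters of the motifs searched while being barely detected. RefSeq gave windows for 6 of the 10 members (GRCm38.p6, 250 bases before to 50 after the start, 5′ to 3′ on the gene's strand); capitals mark the motifs.
Chil3, chr3:106167515-106167814, minus strand: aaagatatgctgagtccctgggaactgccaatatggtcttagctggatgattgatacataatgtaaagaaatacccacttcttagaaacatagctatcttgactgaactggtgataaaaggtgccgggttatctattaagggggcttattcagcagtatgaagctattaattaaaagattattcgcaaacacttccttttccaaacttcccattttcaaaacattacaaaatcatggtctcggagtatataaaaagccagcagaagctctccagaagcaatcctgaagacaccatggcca
Retnla, chr16:48842359-48842658, plus strand: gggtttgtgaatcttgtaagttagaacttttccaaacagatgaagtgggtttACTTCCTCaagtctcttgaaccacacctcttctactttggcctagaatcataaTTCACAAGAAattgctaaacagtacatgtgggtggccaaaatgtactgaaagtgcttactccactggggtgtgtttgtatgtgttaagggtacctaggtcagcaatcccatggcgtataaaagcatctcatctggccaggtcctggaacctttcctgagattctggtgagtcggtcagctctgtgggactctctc
Cd163, chr6:124304401-124304700, plus strand: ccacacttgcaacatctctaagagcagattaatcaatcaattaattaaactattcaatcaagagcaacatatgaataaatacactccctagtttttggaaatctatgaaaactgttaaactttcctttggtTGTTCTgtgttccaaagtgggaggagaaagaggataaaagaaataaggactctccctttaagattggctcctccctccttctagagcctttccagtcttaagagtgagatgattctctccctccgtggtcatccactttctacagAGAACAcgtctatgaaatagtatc

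Sites of 5 kinds were searched on both strands of each window. The exact palindrome of the glucocorticoid response element, which is AGAACA, 3 free bases and TGTTCT, was in 3 of 32851 promoter windows of the genome (0.0091%). It was in 0 of the 6 members' windows, and at that share the 0 carries no information about the members. Its hexamer AGAACA was in 19.0% of all windows and in that of Cd163, at positions 132 to 137 and 277 to 282 of the window. The STAT6 site, which is TTC, 4 free bases and GAA, was in 6.95% of all windows and in that of Retnla, at positions 106 to 115, and the PU.1 core GAGGAAGT was in 3.2% of all windows and in that of Retnla, at positions 53 to 60 on the opposite strand. The core TTGCNNCAA of CCAAT/enhancer binding proteins was in 2.08% of all windows and in 0 of the members' windows. The Chil3, Mrc1, Marco and Stab1 windows held 0 of the 5 motifs, which says only that these letters were not in these 300 bases.

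Chil3 (chr3:106147554-106167564, minus strand), a secreted chitinase-like lectin without enzyme activity, was higher in the GC library in most myeloid classes. In callus monocytes it was at 603 CPM in control and 1433 CPM in GC (1382 and 2703 UMIs), 2.37-fold higher (2.22 to 2.54). In callus macrophages it was at 52.6 and 212 CPM (34 and 103 UMIs), 4.02-fold higher (2.71 to 6.12). After thinning, 32.0% of control and 51.6% of GC monocytes held a Chil3 UMI (54.1% and 67.2% unthinned), and so did 5.95% and 9.41% of macrophages (10.2% and 22.1% unthinned). In the same libraries 0.334% of control B cells held one and 0 of 349 GC B cells did, which allows up to 0.860%. Chondrocytes, however, had 1.10 CPM in control and 9.54 CPM in GC, 8.64-fold higher (6.68 to 11.3), with a Chil3 UMI in 0.0790% and 3.83% of thinned cells. Of the 392 GC UMIs, 314 lay in 1 cluster of 99 control and 1275 GC cells, in which the neutrophil gene Camp was at 3.83 and 78.2 CPM. In the other 3 chondrocyte clusters with at least 200 cells of each library the Chil3 ratios were 0.987, 1.68 and 2.05, all with intervals that included 1. Chil3 was also found in the unnamed cluster led by Olr1 and Apoc2, at 149 and 381 CPM (2.56-fold, 1.75 to 3.82). Osteoclasts had 0.903 and 6.86 CPM on 2 and 14 UMIs. In T cells Chil3 was lower in GC, on 11 and 4 UMIs (ratio 0.277, 0.0644 to 0.936), with 3.32 CPM in GC. Endothelial cells had 6 UMIs in control and 0 in GC. An unnamed cluster led by Ccn1 and Egr1 had 6 and 2 UMIs (ratio 0.177, 0.0175 to 0.989). T cells, endothelial cells and that cluster were under the minimum of UMIs for a call. Among clusters with under 15 control cells, 57 GC cells led by Elane and Ibsp had 43.5 CPM and 74 GC cells led by Ngp and Camp had 305 CPM. Chil4, a close paralog whose reads could be counted with Chil3, had 0 UMIs in callus monocytes and macrophages, 0 to 5 UMIs in the trabecular classes described, and how reads were divided between the paralogs is uncertain.

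Il10 (chr1:131019845-131024974, plus strand), the anti-inflammatory cytokine, was at 41.8 and 55.5 CPM in callus macrophages (27 UMIs in each library), a ratio of 1.33 (0.750 to 2.35). A single control cell held 11 of these UMIs and a single GC cell 15, and without them the levels were 24.9 CPM in both libraries. In callus monocytes Il10 was at 25.3 and 20.1 CPM (0.795, 0.514 to 1.22), and in osteoclasts at 9.48 and 6.37 CPM on 21 and 13 UMIs. Mature neutrophils of callus had 3.40 CPM in control (7 UMIs) and 32.1 CPM in GC (45 UMIs in 40 of 1209 cells), 9.44-fold higher (4.23 to 24.8). No neutrophil held more than 2 UMIs. Of thinned GC neutrophils 3.09% held an Il10 UMI (3.31% unthinned, median depth 1135 UMIs), while 0.860% of thinned GC B cells and 0.139% of thinned GC chondrocytes did. In control the shares were 0.313% of mature neutrophils and 0.334% of B cells. B cells had Il10 at 2.22 and 17.9 CPM on 3 and 12 UMIs, 8.03-fold higher in GC (2.17 to 44.3), and chondrocytes had 0.237 and 0.219 CPM on 15 and 9 UMIs.

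Few members could be called in callus. In macrophages 5 of 10 members had enough UMIs, 1 was called higher in GC (Chil3), beside 2.97% of the 3398 genes with enough UMIs, and 0 were called lower, beside 2.38%. The median log2 ratio was 0.35 over these members and 0.07 over all genes. In monocytes 5 members had enough UMIs, 1 was called higher (Chil3) beside 3.9% of 6023 genes and 1 lower (Arg1) beside 3.62%, with a median of -0.33 against 0.05. Chil3 in macrophages passed the minimum of 50 UMIs through the GC library, where it was high, and Arg1 in monocytes and osteoclasts through the control library, so these counts do not describe all 10 members. In osteoclasts 2 members had enough UMIs, 0 were called higher beside 1.52% of 7017 genes and 1 lower (Arg1) beside 1.91%.

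In mature neutrophils of callus 3 members had enough UMIs and 2 were called higher (Chil3 and Il10) beside 5.9% of 4812 genes, with 0 lower beside 5.28%. Chil3 was at 5.83 and 31.4 CPM there on 12 and 44 UMIs, 5.38-fold higher (2.80 to 11.2), but with earlier versions of the rule that names clusters the ratio was as low as 1.05. Chil3 and Il10 passed the minimum only with the GC library, where they were high. Mature neutrophils of the libraries lay in different clusters, 1 with 490 control and 1138 GC cells and 1 with 1074 and 71 cells. Within the former Chil3 was 6.33-fold higher (2.02 to 32.0) and Il10 6.81-fold higher (2.18 to 34.3), on 3 control UMIs each. Within the latter Chil3 had 9 and 4 UMIs (7.06-fold, 1.59 to 25.3) and Il10 4 and 2 UMIs (7.94-fold, 0.718 to 55.4). Il10 kept 49 UMIs without the highest cell of each library and then fell under the minimum. In immature neutrophils, the class with the granule gene Camp at 11283 and 12452 CPM, 1 member had enough UMIs, and 0 were called higher beside 8.11% of 2059 genes or lower beside 4.76%. That member was Chil3, at 1047 and 1572 CPM (1.5, 1.33 to 1.70). One cell of each library held 102 and 89 Chil3 UMIs of the 397 and 721, and with other versions of the naming rule the ratio was 0.662 to 0.855, so its direction depends on where the class is drawn.

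In trabecular bone Chil3 had the highest level of the members and the largest differences among those with enough UMIs. It was at 6016 CPM in control and 17158 CPM in GC immature neutrophils, the cells that fill their granules with Camp and Ltf, which is 2.85-fold higher (2.82 to 2.88). In granulocyte-monocyte progenitors or promyelocytes it was at 1219 and 4848 CPM, 3.98-fold higher (3.87 to 4.09). In monocytes it was at 2059 and 7224 CPM, 3.51-fold higher (3.42 to 3.59). In mature neutrophils it was at 188 and 6553 CPM, 34.8-fold higher (33.2 to 36.6). Of all Chil3 UMIs in kept cells, immature neutrophils held 75.4% in control and 57.8% in GC, and mature neutrophils held 20.0% in GC.

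Where Chil3 was low, most classes that could be compared were higher in GC with intervals above 1. Hematopoietic stem or progenitor cells had 26.2 and 325 CPM (12.4-fold, 7.73 to 21.2), mast cells or basophils 50.2 and 1353 CPM with 378 of the 510 GC UMIs in 1 cell, and erythroid cells 53.2 and 185 CPM (3.48-fold, 2.95 to 4.11). T cells had 155 and 170 CPM (ratio 1.10, 0.804 to 1.52), where 1 control cell held 37 of 51 UMIs. The control level of T cells therefore rests largely on that cell, and a ratio without it was not computed. B cells had 83.4 and 160 CPM, the former with 49 of 158 UMIs in 1 cell and the latter on 8 UMIs in 16 cells. Skeletal stem or stromal cells had 72.0 and 422 CPM on 9 and 118 UMIs (5.86-fold, 2.99 to 13.1). The interval of the B cell ratio was 0.816 to 3.88, so that it and that of T cells included 1. Plasmacytoid dendritic cells had 361 CPM in 33 control cells (39 of 91 UMIs in 1 cell), and their 6 GC cells were too few to compare. Innate lymphoid cells had 224 CPM in 21 GC cells, with 7 control cells. Empty droplets of the same libraries had Chil3 at 1954 CPM in control and 5129 CPM in GC. The levels in erythroid, T and B cells, stem or progenitor cells, stromal cells, and mast cells or basophils lay below those values in both libraries. Granulocyte-monocyte progenitors or promyelocytes also lay below them in both, at 1219 and 4848 CPM. Monocytes lay above them, at 2059 CPM in control and 7224 CPM in GC. The level of mature neutrophils lay below the empty droplets in control and above them in GC.

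**Figure D3:**
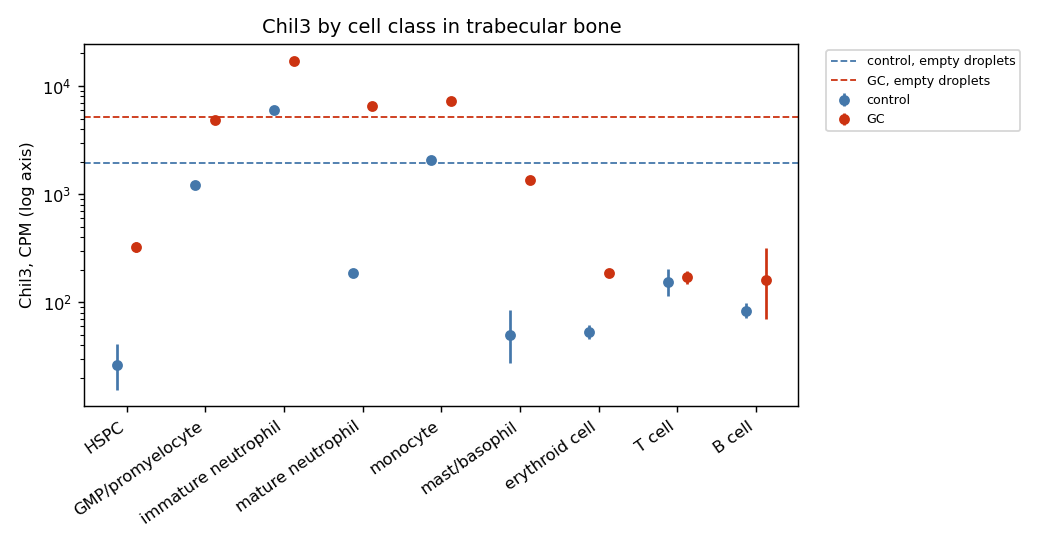
Chil3 by cell class in trabecular bone, in CPM on a log axis with 95% Poisson intervals; blue is control, red is GC, and dashed lines give the empty droplets of each library. Mature neutrophils lie at 188 CPM in control and 6553 CPM in GC, while T cells lie at 155 and 170 CPM. A single cell held most of the Chil3 UMIs of control T cells.

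After thinning, a Chil3 UMI was found in 87.9% of control and 99.2% of GC immature neutrophils (774 of 782 and 993 of 993 cells unthinned), in 11% and 93.9% of mature neutrophils (36.4% and 98.6% unthinned, median depths 4961.5 and 3714.5 UMIs), and in 58.4% and 84.7% of monocytes (86.9% and 98.9% unthinned). Erythroid cells, which should lack the gene, held one in 3.50% and 16.9% of thinned cells (31.7% and 60.4% unthinned, median depths 6351.5 and 5819 UMIs). Shallower cells left out numbered 32 and 42 among mature neutrophils and 14 and 28 among erythroid cells. With the lowest level of Chil3 among classes of at least 100 cells taken off each library as free RNA, the ratio was 47.3 in mature neutrophils, 2.85 in immature neutrophils and 3.52 in monocytes. The values taken off were 53.2 CPM in control (erythroid cells) and 170 CPM in GC (T cells), under the 1954 and 5129 CPM of empty droplets. From mature neutrophils at 188 and 6553 CPM this could only raise the ratio. The part of free RNA in the difference was therefore not tested.

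Mature neutrophils of the 2 libraries sat in different clusters. Cluster 0 (1017 control and 50 GC cells, led by Il1b and Wfdc17) and cluster 1 (687 and 149 cells, led by Mmp9 and Retnlg) held nearly all control cells, while cluster 2 (0 and 729 cells), cluster 3 (1 and 642 cells) and cluster 5 (5 and 552 cells) held most GC cells. Within cluster 0 Chil3 was at 65.8 and 1774 CPM, 27.0-fold higher in GC (23.1 to 31.5), and within cluster 1 it was at 312 and 2238 CPM, 7.18-fold higher (6.70 to 7.69). With clusters of under 15 cells of either library left out, a choice made after the values were seen, the ratio over mature neutrophils was 11.4. Immature neutrophils had a shared cluster of 263 and 304 cells in which Chil3 was at 5937 and 19577 CPM (3.30-fold, 3.24 to 3.35), 3 small clusters with ratios of 2.39 to 2.93, and a cluster of 348 and 33 cells at 2258 and 8653 CPM, while a further one held 3 control and 517 GC cells. Among clusters of progenitors or promyelocytes with at least 15 cells of each library the ratio was 1.06 (0.747 to 1.51) to 10.9 (10.1 to 11.7). Camp, a marker of the earlier granulocyte stage, was at 1836 CPM in control and 611 CPM in GC mature neutrophils, and Retnlg, a marker of mature cells, at 33117 and 39270 CPM. The summed level of 10 immature neutrophil markers was 19190 CPM in control and 22612 CPM in GC mature neutrophils. That of 11 mature neutrophil markers, Retnlg among them, was lower in GC, at 369780 CPM in control and 281935 CPM in GC.

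**Figure D4:**
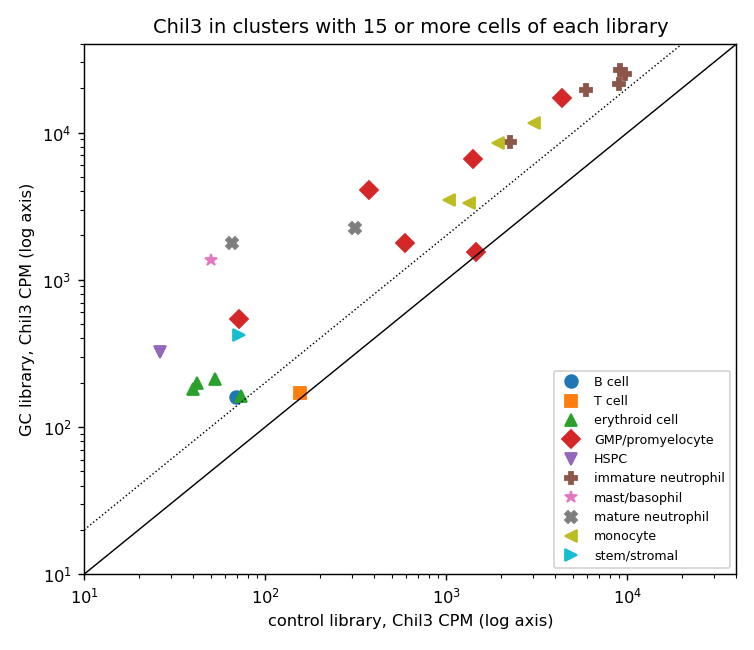
Chil3 in each cluster of trabecular bone with at least 15 cells of each library; the x axis is the control and the y axis the GC library, both in CPM on log axes, with a solid line at equal levels and a dotted line at 2-fold. The 2 mature neutrophil clusters lie at 65.8 and 1774 CPM and at 312 and 2238 CPM. T cells and 1 cluster of progenitors or promyelocytes lie near the line of equal levels, but a single cell held most of the Chil3 UMIs of control T cells.

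The other members of trabecular bone were low. In monocytes Msr1 was at 46.1 CPM in control and 53.0 CPM in GC (ratio 1.15, 0.941 to 1.40), Stab1 at 22.5 and 25.2 CPM (1.12, 0.838 to 1.5), and Clec10a at 24.2 and 21.3 CPM (0.880, 0.652 to 1.19), all with intervals that included 1. Il10 had 1 UMI in control and 24 UMIs in GC monocytes, where 1 cell held 12. Cd163 had 16 and 5 UMIs, with 5 of the 16 in 1 cell, and Mrc1 had 16 and 12 UMIs (3.91 and 2.93 CPM). Progenitors or promyelocytes had Stab1 at 5.75 and 5.30 CPM (0.922, 0.552 to 1.55) and Clec10a at 2.88 and 5.15 CPM (1.79, 0.954 to 3.53). Clec10a was at 83.3 CPM on 21 UMIs in plasmacytoid dendritic cells of the control, and Il10 had 0 and 14 UMIs in T cells. Stab1 in mature neutrophils was at 5.16 CPM in control and 22.3 CPM in GC (45 and 198 UMIs), 4.33-fold higher (3.12 to 6.13), and a Stab1 UMI was found in 0.596% and 2.79% of thinned cells (2.16% and 8.20% unthinned). It passed the minimum through the GC library. Of its 198 GC UMIs, 192 lay in the 3 clusters with almost no control cells, at 13.1 to 49.1 CPM. Within the 2 shared clusters the ratios were 1.57 (0.309 to 4.95) and 1.78 (0.305 to 7.43) on 3 GC UMIs each, so the difference was not shown within a cluster. Erythroid cells held a Stab1 UMI in 0 of 314 thinned control cells, which allows up to 0.955%, and 0 of 533 GC cells, which allows up to 0.563%. Il10 in mature neutrophils had 3 UMIs in control and 33 in GC, under the minimum for a call.

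In monocytes of trabecular bone 4 members had enough UMIs, 1 was called higher (Chil3) beside 0.952% of 8399 genes and 0 lower beside 1%. In progenitors or promyelocytes 3 members had enough UMIs, 1 was called higher (Chil3) beside 0.544% of 8637 genes and 0 lower beside 0.625%. In immature neutrophils 1 member had enough UMIs and was called higher (Chil3) beside 1.75% of 7819 genes, with 0 lower beside 1.39%. In mature neutrophils 2 members had enough UMIs and both were called higher (Chil3 and Stab1) beside 11.4% of 7209 genes, with 0 lower beside 1.68%. The median log2 ratio of all genes in that class was 0.36, the source of which was not tested, and the log2 ratios of Chil3 and Stab1 were 5.12 and 2.11.

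Retnla (Fizz1), the resistin-like protein of alternatively activated macrophages, was found in trabecular bone on 5 UMIs in control and 24 in GC, and these lay in neutrophils except for 1 UMI in a control monocyte. Immature neutrophils held 4 UMIs in control, all in 1 cell, and 20 UMIs in 7 cells in GC, with 10 of them in 1 cell. Retnlg, a related gene of neutrophils, had 42179 and 102979 UMIs in the same cells. How reads were divided between these paralogs was not tested, so the level of Retnla is uncertain.

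The genes around the members were read from 4 lists, in which Cd68, Cd209a, Klf4 and Il1b, among others, also served as markers of cell classes. Of 28 relatives of the alternative activation and scavenger program, 7 had enough UMIs in callus macrophages and 0 were called in either direction. Of all genes there, 2.97% were called higher and 2.38% lower. In that class Hmox1, which degrades heme, was at 1706 and 3131 CPM (1.84-fold, 1.70 to 1.99) and Cd68 at 414 and 542 CPM (1.31-fold, 1.10 to 1.56). In callus monocytes 10 had enough UMIs, with 1 called higher beside 3.9% of all genes and 0 lower beside 3.62%. The higher one was the inhibitory receptor Cd200r1 at 31.9 and 74.7 CPM (2.35-fold, 1.76 to 3.16). Tgm2, a transglutaminase of alternatively activated macrophages, was at 919 and 494 CPM there (0.538, 0.497 to 0.581). In trabecular monocytes 10 had enough UMIs, with 2 called higher beside 0.952% of all genes and 0 lower beside 1%. The higher ones were Hmox1 at 45.9 and 95.8 CPM and the lectin Cd209a at 3.91 and 9.53 CPM. Hmox1 was called higher in immature neutrophils of both tissues, at 968 and 4423 CPM in callus and at 12.7 and 29.6 CPM in trabecular bone. Of the relatives with enough UMIs, 1 of 9 was called higher and 2 lower in trabecular immature neutrophils, beside 1.75% and 1.39% of all genes. Trabecular mature neutrophils had 1 of 9 higher and 1 lower, beside 11.4% and 1.68%. In callus, 1 of 5 was higher in immature and 2 of 9 in mature neutrophils, with 0 lower. The shares of all genes called higher there were 8.11% and 5.9%, and the shares called lower were 4.76% and 5.28%.

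Of 22 receptors and factors upstream of the members, 17 had enough UMIs in callus macrophages. Of these, 1 was called higher beside 2.97% of all genes and 0 lower beside 2.38%. The higher one was the transcription factor Klf4 at 204 and 444 CPM (2.17-fold, 1.74 to 2.72). In callus monocytes 17 and in trabecular monocytes 18 had enough UMIs, and 0 were called. Of all genes, 3.9% were called higher and 3.62% lower in the former, and 0.952% and 1% in the latter. The factor Cebpb, which drives Arg1 in macrophages, was at 985 and 869 CPM in callus macrophages (0.882, 0.778 to 0.999) and at 2298 and 1630 CPM in callus monocytes (0.709, 0.678 to 0.741). In mature neutrophils of callus 2 of 18 were called higher and 2 lower, beside 5.9% and 5.28% of all genes. In those of trabecular bone 1 of 17 was called higher and 0 lower, beside 11.4% and 1.68%. Il4ra, the receptor chain for interleukin 4 and interleukin 13, was among the lower ones in callus, at 186 and 83.5 CPM. It was the higher one in trabecular bone, at 31.3 and 64.2 CPM.

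Of 18 genes of inflammatory activation, 13 had enough UMIs in callus monocytes, with 2 called higher and 3 lower, beside 3.9% and 3.62% of all genes. Il1b was at 1071 and 453 CPM and Cxcl2 at 2998 and 1323 CPM, both lower in GC, while Tnf was at 17.5 and 82.2 CPM and Cxcl10 at 21.4 and 79.0 CPM, both higher. In callus macrophages 11 had enough UMIs, with 2 higher and 3 lower, beside 2.97% and 2.38% of all genes. Tnf was at 77.3 and 171 CPM there, and Il1b, among the lower ones, at 373 and 160 CPM. In mature neutrophils of callus 10 had enough UMIs, with 1 higher (Tnf) and 4 lower, beside 5.9% and 5.28% of all genes. Il1b was among the lower ones, at 5677 and 1020 CPM. In trabecular bone the same list had more genes higher than lower in monocytes (3 and 0 of 12, median log2 ratio 0.62) and immature neutrophils (3 and 1 of 9). The same held in mature neutrophils (7 and 0 of 13, median 1.04), where the median over all genes was 0.36. Progenitors or promyelocytes had 0 higher and 1 lower of 8. The shares of all genes called higher and lower were 0.952% and 1% in these monocytes. They were 1.75% and 1.39% in immature neutrophils, 11.4% and 1.68% in mature neutrophils, and 0.544% and 0.625% in progenitors or promyelocytes. Of 14 glucocorticoid response genes, 13 had enough UMIs in mature neutrophils of trabecular bone and 8 were called higher, beside 11.4% of all genes there. Trabecular monocytes had 4 of 13 higher, immature neutrophils 3 of 11 and progenitors or promyelocytes 1 of 11, with 0 lower in each. The shares of all genes called higher there were 0.952%, 1.75% and 0.544%, and the shares called lower were 1%, 1.39% and 0.625%. In callus monocytes 11 had enough UMIs, with 0 higher and 2 lower, beside 3.9% and 3.62% of all genes. In callus macrophages 8 did, with 2 higher and 0 lower, beside 2.97% and 2.38%. Mature neutrophils of callus had 12, with 1 higher (Klf9) and 2 lower (Dusp1 and Errfi1), beside 5.9% and 5.28%.

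The classes named monocyte in the 2 tissues differed in these genes already in the control libraries. They also differed in other genes, so they may not hold the same kind of cell. Ly6c2 was at 600 CPM in callus and 2278 CPM in trabecular bone, Ccr2 at 222 and 831 CPM, and Cd74 at 3896 and 292 CPM. The summed level of 12 macrophage markers was 3111 and 1224 CPM, and that of 12 monocyte markers 13210 and 21995 CPM. Arg1 was at 51.1 CPM in callus (117 UMIs) and 0.244 CPM in trabecular bone (1 UMI), a ratio of 209 with a counting interval of 36.8 to 8336. Il10 was at 25.3 and 0.244 CPM (58 and 1 UMIs), a ratio of 104 (17.9 to 4167). Stab1 was 5.35-fold higher in callus (4.21 to 6.85) and Msr1 2.02-fold higher (1.65 to 2.47). Chil3 was 3.41-fold higher in trabecular bone (3.22 to 3.62), and Clec10a 2.31-fold higher (1.46 to 3.77). These values set 1 library against another and cannot be told apart from other differences between those libraries. Chondrocyte markers were at 3149 CPM in callus monocytes and 1.22 CPM in trabecular monocytes of the control, and their part in the difference was not tested. Empty droplets had Chil3 at 25.3 CPM in control callus and 1954 CPM in control trabecular bone, where monocytes had 2059 CPM. The neutrophil gene Camp was at 1.75 CPM in callus and 159 CPM in trabecular monocytes of the control. The part of free or neutrophil RNA in the difference was not tested.

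Members found in the same cell were counted after thinning, which lowers joint detection. Of control callus macrophages thinned to 1000 UMIs, 33 of 84 held at least 1 member and 7 at least 2, and of GC macrophages 39 of 85 and 14. Mrc1 and Stab1 shared 4 control and 6 GC macrophages, where the product of their shares gives 2.01 and 2.24 cells. Chil3 and Stab1 shared 0 macrophages in both libraries. In control callus monocytes Arg1 was found in 17 cells, 7 of them with Chil3 (5.44 from the product of shares), and Chil3 and Msr1 shared 22 cells (16.0 from the product). In GC callus monocytes Chil3 and Msr1 shared 26 cells (24.8 from the product). Chil3 and Stab1 shared 15 control callus monocytes, under the 17.3 from the product, and 30 GC callus monocytes (25.3 from the product). In trabecular control monocytes all 15 cells with Msr1 also held Chil3 (8.76 from the product). In trabecular GC monocytes 11 of the 12 cells with Msr1 held Chil3 (10.2 from the product). Cells of 1 library that are alike in type or quality can share genes, so these counts are descriptions.

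Over 22 classes and clusters of callus, with both libraries summed, the genes whose level followed a member most closely by Pearson correlation of log2(CPM + 5) among 13736 genes were C3ar1 for Msr1 (r = 0.943), the lectin Cd209a for Clec10a (0.941), Cd177 for Chil3 (0.821), Ms4a6d for Mrc1 (0.849) and Edn1 for Stab1 (0.821). For Arg1 they were 2310022A10Rik (0.849) and Msr1 (0.829), and for Il10 they were 9130230L23Rik (0.807) and Tank (0.777). Over 13 classes of trabecular bone and 10968 genes Chil3 followed Hp, haptoglobin of neutrophil precursors (0.971), Msr1 followed Galnt9 (0.996), and Stab1 followed Saa3 (0.914). Classes of a tissue share libraries and depth, and the values are descriptions.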

How the data were processed

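The data were 4 droplet libraries, 1 for each tissue and treatment. The authors deposited UMI counts per gene and barcode as sparse matrices with no normalization; the submitters' processing notes name Cell Ranger 5.0.1, Seurat 3.2.0 and mm10, while the matrix headers name Cell Ranger 4. Libraries held 95852254 (callus, control), 64388215 (callus, GC), 41239842 (trabecular, control) and 45876714 (trabecular, GC) UMIs in all. For callus under GC only the 7762 called barcodes were given. The rest listed 6794880 barcodes, and their cells were called by a UMI cutoff (10% of the 99th percentile of the top 3000 barcodes) and, under it, a Monte Carlo test of barcodes with at least 500 UMIs against empty droplets (10000 simulations, false discovery rate 0.01). Cells with under 200 genes or over 10% mitochondrial UMIs and simulated-neighbour doublets (0.8% per 1000 cells) were removed.

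Cells were clustered within a tissue by Leiden (resolution 1.0, 2000 variable genes, 30 components, 15 neighbours; 86 of the 92 listed genes were left out, the other 6 being markers) and named from 215 markers of 23 classes. The naming rule went through 5 versions, 4 of them replaced after cluster names, leading genes and sizes were seen. Clusters of a class were summed. Classes under 15 cells in a library were not compared. Values within single clusters were added after the class values were seen. Ratios carry exact conditional 95% intervals, levels exact Poisson intervals and shares Clopper-Pearson intervals. Where a count was 0, 3 counts were taken as the upper limit. Scripts were tested on simulated counts. Python 3.11.15, numpy 2.4.6, scipy 1.17.1, scikit-learn 1.9.0, igraph 0.11.9 and leidenalg 0.10.2 were used.

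The members and gene lists were chosen with earlier results of these data known. The text names each member in every class of at least 15 cells with at least 10 UMIs of it, and from the lists up to 4 genes with the most UMIs in a class. Other list genes are named because they were called or bear on a member, after their values were seen. Genes most alike are those with the highest correlation over classes (genes with at least 100 UMIs). The classes described beside callus macrophages and monocytes and trabecular monocytes, the searched motifs and the single marker genes were chosen after values by class had been seen. Gene positions and promoters were read from GRCm38 annotation.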

Additional observations from a re-analysis of the deposited data

Results flagged for a closer look

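Stab1 in monocytes lay on opposite sides of 1 in the 2 tissues. The GC over control ratio was 0.755 in callus (interval 0.620 to 0.917) and 1.12 in trabecular bone (0.838 to 1.5), and it was singled out because the directions differ. With 1 library per group the difference was not tested. Over the alternatives the callus ratio was 0.752 to 0.970 and the trabecular ratio 1.10 to 1.82.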

How the results depend on the processing

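No paired analysis was possible because each tissue and treatment had 1 library, and no replicate could be left out. Ratios were rerun only in the myeloid classes whose called members are counted above, and no called ratio there turned its direction. Those of Chil3 in callus chondrocytes, in the unnamed cluster led by Olr1 and in the other trabecular classes were not rerun. The counts of called members that moved were these. In callus macrophages the count of higher members was 0 with every cell thinned to 1000 UMIs and with a minimum of 200 UMIs, and 2 with a minimum of 20 UMIs, and the count of lower members was 1 with macrophages and monocytes as one class. In callus monocytes the count of lower members was 0 with the UMI cutoff alone, with thinning and with a minimum of 200 UMIs. In callus that cutoff, at 7535 UMIs, was applied to the control library only, because the GC matrix held called cells only. In osteoclasts the count of lower members was 0 with thinning, with a minimum of 200 UMIs and without the highest cell of each library, and the count of higher members was 1 under version 1 of the naming rule. In mature neutrophils of callus the count of higher members was 0 with thinning and with a minimum of 200 UMIs, and 1 with at least 500 genes, with at most 5% mitochondrial UMIs, under naming versions 1, 2 and 3, and without the highest cells. In immature neutrophils of callus it was 1 at a fold of 1.5. In trabecular bone a minimum of 20 UMIs gave 2 higher and 1 lower in monocytes and 2 higher in immature neutrophils, and progenitors had 2 higher at Leiden resolution 2 and at a fold of 1.5. Thinning and a higher minimum leave fewer UMIs to call on; the cause of the other moves was not tested. Alternatives were planned for callus macrophages and monocytes and trabecular monocytes; those for other classes, the naming versions, the small clusters and the highest cells were chosen after seeing the data. Over all alternatives Arg1 was 5.74-fold to 26.8-fold lower in callus monocytes, and Chil3 was 2.36-fold to 4.62-fold higher there, 2.45-fold to 6.23-fold higher in callus macrophages and 11.4-fold to 63.3-fold higher in trabecular mature neutrophils. With unnamed clusters left out and both libraries summed, the named callus class with the highest level was the same in 5 of 12 alternatives for Clec10a. It was the same in 7 of 13 for Stab1 and 8 of 13 for Chil3. Ratios under the call threshold did change sides of 1, as for Chil3 in callus immature neutrophils (0.662 to 1.92), Clec10a (0.988 to 3.65) and Il10 (0.848 to 6.92) in callus macrophages. After thinning, few callus macrophages of either library held a UMI of Clec10a or Il10, so their thinned ratios are uncertain. With the UMI cutoff alone, which in callus was applied to control cells only, callus neutrophils had too few cells for a value. Levels of the members with few UMIs are limited by depth.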
